A study of Mus musculus with 7 samples.

Results

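Genes of the G2 phase and of mitosis were compared between transplanted tumours of 2 mouse mammary tumour lines, Met1 and DB7. The genes are 44 that code for mitotic cyclins and kinases, the spindle checkpoint, the kinetochore, spindle motors, condensin and the machinery of cell division. Every probe set that the array's annotation assigns to exactly 1 gene symbol, and whose symbol is on this list, was taken. This gave 77 probe sets for 41 of the 44 genes, out of 12393 genes with such a probe set on the array. Ccnb1, Espl1 and Cdca8 had no probe set of this kind, so their expression is not analysed here. RNA of 3 Met1 tumours and 4 DB7 tumours was hybridised to 1-colour Affymetrix expression arrays, 1 array per sample, and the values are probe set summaries on the log2 scale, where a difference of 1 is a 2-fold change. The labels call the tissue Met1 transplant tumor or DB7 transplant tumor and give no host strain, age or treatment. The series' design text speaks instead of tumours of outcrossed first-generation animals, and the sample labels were followed. As background from outside the labels, both lines descend from mice with a polyoma middle T transgene active in the mammary gland. Met1 is known to metastasise readily, and DB7 is known as a seldom metastatic line that carries a middle T mutant uncoupled from phosphatidylinositol 3-kinase. The labels do not say that the tumours of a line grew in different animals. The p-values therefore refer to the spread among these samples, some of which may be technical.

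The luminal epithelial markers fitted the labelled tissue, with 6 of 7 above the array median on all 7 arrays. Correlations across probe sets were at least 0.986 within a line and at most 0.972 between lines. Array medians lay between 6.53 and 6.61. RNA integrity, read from the Gapdh controls as the 3' signal minus the 5' signal, ran between -0.32 and -0.23 in Met1 and between -0.34 and -0.205 in DB7. A bulk tumour also holds cells other than tumour epithelium. Fibroblast, macrophage, and B and plasma cell markers were higher in DB7 1 and DB7 4 than in the other DB7 arrays. Their values are given below beside the mitotic levels.

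Cells enter mitosis when cyclin-bound Cdk1 becomes active. Aurora and Polo-like kinases then build the spindle, condensin compacts the chromosomes, and the spindle checkpoint holds back the anaphase-promoting complex until every kinetochore is attached. Once Cdc20 activates that complex, securin and the cyclins are destroyed, sister chromatids part and the cell is cleaved. Transcripts of most of these genes accumulate in G2 and mitosis and are low in resting cells, so in a tumour their level is often read as a proliferation signature.

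Nearly all measured mitotic genes were lower in Met1 than in DB7 tumours, and 0 were higher. With each gene represented by its brightest probe set and no filter on dim signals, 38 of 41 genes were lower (limma, adjusted p under 0.05), while Bub3, Nusap1 and Nek2 did not pass. Across the array, 10.7% of all genes were lower by the same rule. The main comparison kept probe sets above the array median on at least 3 of the 7 arrays, and 36 of the 41 genes passed that filter. Of these, 34 were lower, Bub3 and Nusap1 did not pass, and of the 7482 genes tested 17.9% were lower and 13% higher. The median difference (Met1 minus DB7) was -0.88 for the 36 genes and -0.04 for all tested genes. At least 2-fold lower were 11 of them, against 2.42% of tested genes. Values of the 2 lines did not overlap for 34 of the 36 genes, with every Met1 array below every DB7 array. The same separation was found for 23% of tested genes. A gene can pass the filter through DB7 alone, and its direction is then largely set by the filter. Anln, Ttk, Aurkb and Kif11 had 0 Met1 arrays above the array median, so the count over the filtered genes is a description. Of the 31 genes above the array median on all 7 arrays, 29 were lower. The share of lower genes among all genes above the median on all 7 arrays was not computed. In bulk tumour RNA, fewer cells of a type and less RNA per cell cannot be told apart.

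**Figure D1:**
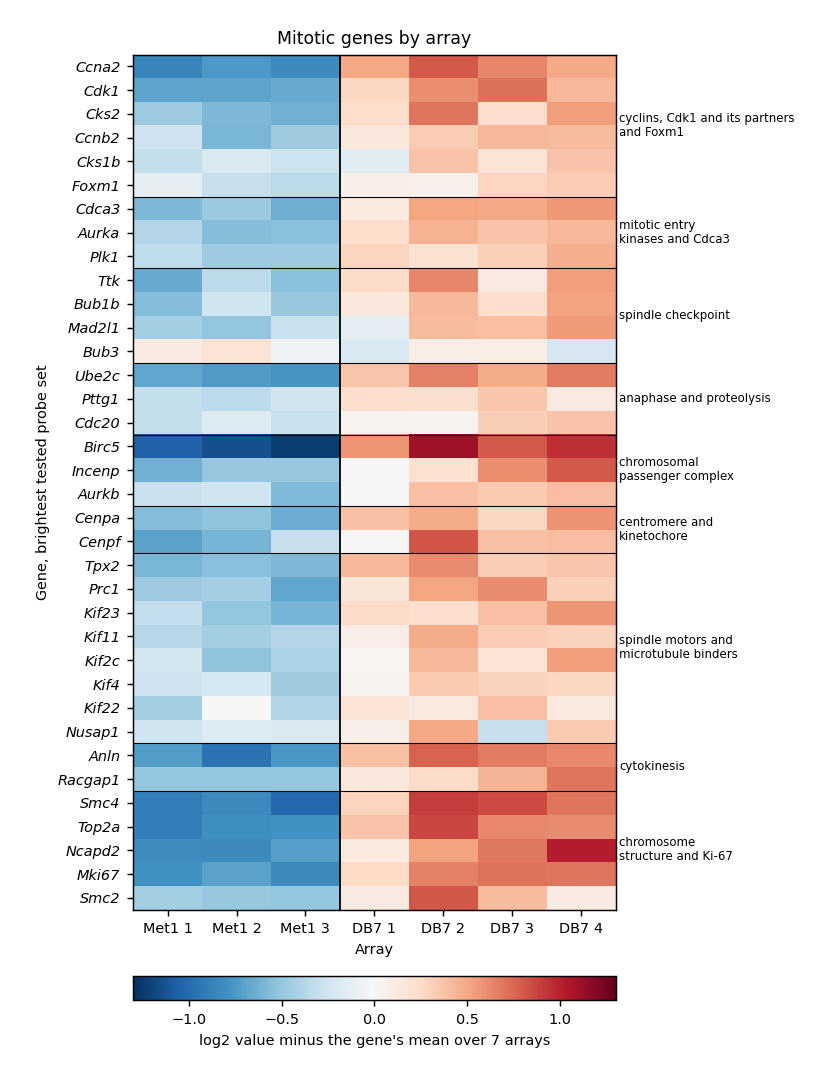
Values of the 36 tested mitotic genes (rows, grouped by role) in the 3 Met1 and 4 DB7 arrays (columns), as the log2 value minus the gene's mean over the 7 arrays. Met1 columns lie below the mean for nearly every gene, Bub3 does not follow, and DB7 1 is the palest of the DB7 columns.

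Promoters of the members had sequence features in common that the choice of genes did not use. The upstream sequences of 6 members are shown because they carry, or lack, the CCAAT box and the cell cycle genes homology region (CHR, usual letters TTTGAA), both known elements of G2 and mitotic promoters. Each line gives the 150 bases just before the transcription start, 5′ to 3′ on the gene's own strand, from RefSeq on GRCm38.p6, and capitals mark CCAAT and TTTGAA in either orientation (ATTGG and TTCAAA on the opposite strand).
Ccnb2 (chr9:70421555-70421704, minus strand): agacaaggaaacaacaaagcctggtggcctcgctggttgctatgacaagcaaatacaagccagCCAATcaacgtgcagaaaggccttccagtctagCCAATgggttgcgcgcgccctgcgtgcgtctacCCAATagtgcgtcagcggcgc
Cdk1 (chr10:69352913-69353062, minus strand): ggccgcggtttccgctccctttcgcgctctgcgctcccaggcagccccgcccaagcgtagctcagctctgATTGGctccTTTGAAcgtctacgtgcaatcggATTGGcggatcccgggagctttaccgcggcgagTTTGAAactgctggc
Top2a (chr11:99024190-99024339, minus strand): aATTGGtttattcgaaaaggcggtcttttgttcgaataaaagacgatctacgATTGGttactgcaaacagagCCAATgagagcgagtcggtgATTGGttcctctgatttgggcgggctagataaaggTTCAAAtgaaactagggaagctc
Ube2c (chr2:164769779-164769928, plus strand): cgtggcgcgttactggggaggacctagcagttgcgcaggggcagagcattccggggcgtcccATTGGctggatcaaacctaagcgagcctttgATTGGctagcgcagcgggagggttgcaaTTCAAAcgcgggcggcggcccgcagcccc
Birc5 (chr11:117849087-117849236, plus strand): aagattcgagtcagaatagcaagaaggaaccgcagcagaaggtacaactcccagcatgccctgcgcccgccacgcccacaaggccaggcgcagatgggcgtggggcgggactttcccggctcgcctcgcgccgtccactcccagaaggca
Bub3 (chr7:131560220-131560369, plus strand): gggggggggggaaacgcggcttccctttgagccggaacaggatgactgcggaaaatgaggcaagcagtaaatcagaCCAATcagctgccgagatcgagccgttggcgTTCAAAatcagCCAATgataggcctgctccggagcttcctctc

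In the Ccnb2 promoter 3 CCAAT boxes stood 33 bases apart, and TTTGAA began 167 bases before and 5 bases after the start, both outside the stretch shown. The Cdk1 stretch held TTTGAA at 71 and 15 bases before the start, each downstream of a CCAAT. In the 250 bases before the start, Top2a and Ube2c had 6 CCAAT each. Bub3, whose brightest probe set did not pass the test, held TTTGAA and 2 CCAAT, whereas Birc5, which differed most, held neither motif in its window. RefSeq promoter windows, of 250 bases before and 50 after a start, were found for 37 of the 44 genes (40 windows), Ccnb1, Espl1 and Cdca8 included. Ccna2, Foxm1, Aurkb, Incenp, Kif20a, Tpx2 and Smc4 were not matched. TTTGAA on either strand was present in 77.5% of the member windows and in 17.9% of all 32851 promoter windows. CCAAT was present in 85% of member windows and 37.4% of all windows, and both motifs together in 72.5% of member windows against 6.95% of all windows. At least 3 CCAAT occurred in 30% of member windows and 3.37% of all windows. Of the 2 E2F core forms searched, TTGGCGC was in 15% of member windows against 2.45% of all windows, and TTCCCGC was in 0 of 40 against 4.6%. TTGGCGC can overlap a CCAAT read on the opposite strand. The 23 tested members with both TTTGAA and CCAAT had a median difference of -0.87, and the 7 tested members with a window but without the pair had -0.72. These matches describe letters and show no binding.

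The cyclins, Cdk1, its partners and the transcription factor Foxm1 were lower in Met1 for each of the 6 measured genes. Ccna2, the cyclin of S and G2 phase, measured 8.60, 8.71 and 8.64 in Met1 1 to 3, against 9.96, 10.26, 10.10 and 9.96 in DB7 1 to 4. Every Met1 value lay at least 1.24 below every DB7 value, and the difference was -1.42 (SE 0.10; limma, adjusted p = 2.11e-05). A further Ccna2 probe set, about 1 unit dimmer, differed by -1.26. Cdk1, the kinase that drives entry into mitosis, measured 8.70, 8.70 and 8.73 in Met1 1 to 3, against 9.65, 9.99, 10.10 and 9.82 in DB7 1 to 4. The Met1 arrays spanned 0.03, and Cdk1 was 2.27-fold lower (adjusted p = 0.000106). The genes of the small Cdk-binding proteins, Cks1b and Cks2, were 1.37-fold and 1.98-fold lower. Cks1b was the weakest call of the group: its call was lost in 6 of the 7 fits with 1 array removed, with DB7 1 the only array whose removal kept it, and its adjusted p reached 0.0884 without Met1 1. By contrast, its second probe set was lower by 0.54 (SE 0.10; adjusted p = 0.00337). Ccnb2, a B-type cyclin, was 1.71-fold lower and Foxm1, a transcription factor of G2 genes, 1.36-fold lower. Foxm1 had 3 probe sets with differences of -0.45, -0.50 and, from a probe set too dim to be tested with the filter, -0.71. The remaining Foxm1 probe set lay near the bottom of the scale in all arrays, at 3.37 to 3.80.

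Kinases of mitotic entry were lower by similar amounts. Aurka, the Aurora kinase of centrosomes and spindle poles, measured 6.76, 6.58 and 6.60 in Met1 1 to 3, against 7.38, 7.59, 7.51 and 7.58 in DB7 1 to 4. The groups were 0.61 apart, and the Met1 level of Aurka was lower by 1.82-fold (limma, adjusted p = 0.000126). Cdca3, an adaptor that promotes mitotic entry, measured 6.93, 7.04 and 6.88 in Met1 1 to 3, against 7.64, 8.03, 8.01 and 8.08 in DB7 1 to 4. It was 1.99-fold lower (adjusted p = 0.000302), with DB7 1 below the other DB7 arrays. A second tested Cdca3 probe set, of similar brightness in Met1, was not past the threshold (-0.17, SE 0.11; adjusted p = 0.3), and the mean of the tested Cdca3 probe sets differed by -0.58. Plk1, the Polo-like kinase, was 1.67-fold lower, at 7.58 ± 0.08 in Met1 against 8.32 ± 0.12 in DB7 (SD, n = 3 and 4; adjusted p = 0.000365). Nek2, a kinase of centrosome separation, stayed under the array median everywhere. Its values were 5.78 to 6.16 in Met1 and 6.24 to 6.33 in DB7, and its difference of -0.31 (SE 0.10) in the fit without the filter did not pass (adjusted p = 0.0601).

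Of 4 tested spindle checkpoint genes 3 were lower, and the exception was Bub3, whose probe sets disagreed. Bub1b, the kinase-like inhibitor of the anaphase-promoting complex, measured 7.30, 7.60 and 7.37 in Met1 1 to 3, against 8.0, 8.29, 8.08 and 8.39 in DB7 1 to 4. It was 1.7-fold lower (limma, adjusted p = 0.00137). Ttk, the kinase that starts checkpoint signalling at kinetochores, measured 5.93, 6.25 and 6.04 in Met1 1 to 3, against 6.83, 7.22, 6.71 and 7.13 in DB7 1 to 4. It was 1.86-fold lower (adjusted p = 0.00163), with the Met1 values below the array median. Mad2l1, the checkpoint protein that binds Cdc20, was 1.65-fold lower (adjusted p = 0.00698). Bub1, the kinase that recruits other checkpoint proteins, was too dim to be tested with the filter, and without the filter its brighter probe set was lower by 1.01 on the log2 scale (SE 0.17; adjusted p = 0.00408).

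Bub3, which brings Bub1 and Bub1b to the kinetochore, measured 9.48, 9.55 and 9.32 in Met1 1 to 3, against 9.19, 9.48, 9.47 and 9.16 in DB7 1 to 4 by its brightest probe set. The groups overlapped, and the difference of 0.13 (SE 0.11) did not pass (limma, adjusted p = 0.429). A dimmer probe set measured 7.54, 7.49 and 7.49 in Met1 1 to 3, against 8.02, 8.05, 8.36 and 8.16 in DB7 1 to 4, with the groups apart and a difference of -0.64 (SE 0.09; adjusted p = 0.00117). The brightest Bub3 probe set has the suffix _s_at, given to probe sets that match several transcripts. With such probe sets left out, Bub3 was lower by 0.64 on the log2 scale, so its direction depends on the probe set chosen. The suffix does not separate the directions. A far dimmer Bub3 probe set with it differed by -0.24 without the filter (SE 0.07; adjusted p = 0.0378). The dimmest, without that suffix, differed by -0.18 (SE 0.11; adjusted p = 0.318).

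The 3 genes measured around the anaphase-promoting complex were lower. Ube2c, the ubiquitin-conjugating enzyme of that complex, measured 8.66, 8.59 and 8.56 in Met1 1 to 3, against 9.69, 9.98, 9.81 and 10.0 in DB7 1 to 4. It was 2.41-fold lower (limma, adjusted p = 3.84e-05), and every Met1 array lay at least 1.03 below every DB7 array. Pttg1, securin, measured 8.81, 8.78 and 8.86 in Met1 1 to 3, against 9.33, 9.33, 9.48 and 9.24 in DB7 1 to 4 by its brightest probe set, a fold of 1.44 (adjusted p = 0.0018). Its other tested probe set differed by -1.02 (SE 0.16), and the one too dim for the filter by -0.18 (SE 0.10; adjusted p = 0.271 without the filter). Cdc20, the activator of the complex, was 1.37-fold lower by its brightest probe set (difference -0.45, SE 0.11; adjusted p = 0.0122). Without Met1 1 or Met1 3 that call was lost, at adjusted p = 0.0501 and 0.0533. Its other probe sets differed by -0.40 (SE 0.08; adjusted p = 0.00577) and -0.08 (SE 0.08; adjusted p = 0.512).

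**Figure D2:**
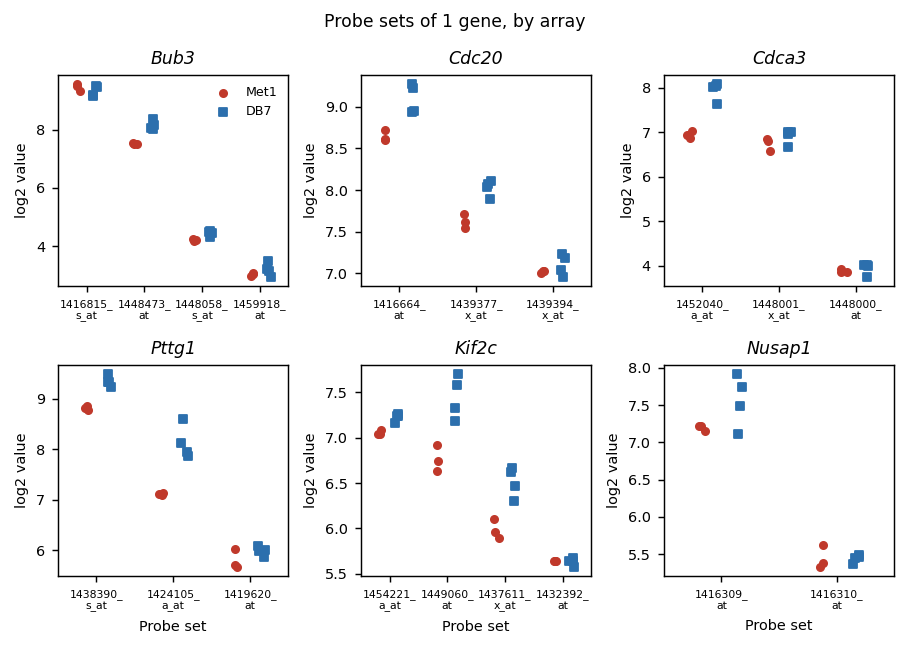
Log2 values of each probe set (x axis) of Bub3, Cdc20, Cdca3, Pttg1, Kif2c and Nusap1 in the Met1 arrays (circles, left in each pair) and the DB7 arrays (squares, right). The brightest Bub3 probe set overlaps between the lines while the next one is apart, and the dimmest probe sets of Cdca3, Kif2c and Nusap1 hardly differ.

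The chromosomal passenger complex held the largest difference of any member. Birc5, survivin, which targets the complex to centromeres and also restrains apoptosis, measured 8.80, 8.70 and 8.62 in Met1 1 to 3, against 10.42, 10.96, 10.65 and 10.80 in DB7 1 to 4. It was 4-fold lower in Met1, with a gap of 1.62 units between the highest Met1 and the lowest DB7 array (limma, adjusted p = 1.32e-05). Incenp, the scaffold of the complex, measured 6.92, 7.05 and 7.05 in Met1 1 to 3, against 7.55, 7.74, 8.15 and 8.34 in DB7 1 to 4. It was 1.91-fold lower (adjusted p = 0.00391), its DB7 values spanned 0.78 units, and its other probe sets differed by -0.75 and -0.39, both past the threshold. Aurkb, the kinase of the complex, was 1.58-fold lower at 6.17 ± 0.17 in Met1 against 6.83 ± 0.19 in DB7 (SD, n = 3 and 4; adjusted p = 0.00482).

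Centromere and kinetochore genes were lower as well. Cenpa, the histone variant that marks centromeres, measured 7.32, 7.36 and 7.24 in Met1 1 to 3, against 8.26, 8.37, 8.15 and 8.47 in DB7 1 to 4. It was 2.01-fold lower (limma, adjusted p = 8.82e-05), and the groups were 0.79 units apart. Cenpf, a large kinetochore protein, measured 6.99, 7.08 and 7.39 in Met1 1 to 3, against 7.69, 8.50, 8.07 and 8.09 in DB7 1 to 4. It was 1.91-fold lower (adjusted p = 0.00416), and a dimmer probe set differed by -0.38 (SE 0.11). That dimmer set passed the filter through DB7 alone, and without the filter its adjusted p was 0.0319. Cenpe, a kinesin of kinetochores, lay close to the bottom of the scale, at 2.58 to 2.83 in Met1 and 3.04 to 3.36 in DB7. In the fit without the filter it was lower by 0.42 on the log2 scale (SE 0.09; adjusted p = 0.0131), a size that is approximate at so dim a signal.

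Of 8 tested spindle motors and microtubule binders 7 were lower, by 1.4-fold to 2.01-fold. Tpx2, which activates Aurora A on the spindle, measured 7.03, 7.08 and 7.04 in Met1 1 to 3, against 8.06, 8.24, 7.94 and 7.98 in DB7 1 to 4. The Met1 arrays spanned 0.05, and Tpx2 was 2.01-fold lower (limma, adjusted p = 6.68e-05). Kif23, the kinesin of the central spindle, measured 7.43, 7.24 and 7.15 in Met1 1 to 3, against 8.01, 7.97, 8.15 and 8.33 in DB7 1 to 4. It was 1.79-fold lower (adjusted p = 0.000602). The Kif23 probe sets too dim for the filter differed by -0.03 and -0.39 (adjusted p = 0.831 and 0.00497 without the filter). Prc1, which bundles the microtubules of the midzone, was 1.9-fold lower, and its second tested probe set differed by -0.82. Kif11, the motor that pushes the spindle poles apart, was 1.62-fold lower by its brightest probe set and differed by -1.02 (SE 0.11) by another. Both of these Kif11 probe sets, and the second of Prc1, passed the filter through DB7 alone, so their direction is largely set by it. Without the filter their adjusted p was 0.00135, 0.000233 and 0.000666. The microtubule depolymerase Kif2c and the chromosome-bound kinesins Kif4 and Kif22 were 1.6-fold, 1.47-fold and 1.4-fold lower. For Kif2c the probe sets disagreed. One nearly as bright over the 7 arrays differed by -0.17 (SE 0.07, adjusted p = 0.0816). In Met1 it was the brighter one, at a mean of 7.05 against 6.76. The mean of the tested Kif2c probe sets differed by -0.43. The call of Kif22 was lost without Met1 1 (adjusted p = 0.0782) and without Met1 3 (0.0816). Met1 2 was the highest Met1 array at 8.57, close to the 8.69 of DB7 2 and DB7 4. The other Kif22 probe sets lay under the array median in every array. Without the filter they differed by -0.70 and -0.84 (adjusted p = 0.000154 and 0.00178). Kif20a, a kinesin of late mitosis, was under the array median in every array, and without the filter it was lower by 1.12 on the log2 scale (SE 0.10; adjusted p = 0.000129).

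Nusap1, which binds and bundles spindle microtubules, measured 7.15, 7.23 and 7.22 in Met1 1 to 3, against 7.49, 7.91, 7.11 and 7.75 in DB7 1 to 4. DB7 3 lay below all Met1 arrays, the groups overlapped, and the difference of -0.36 (SE 0.17) did not pass (limma, adjusted p = 0.137). Without DB7 3 the difference was -0.51 (SE 0.11; adjusted p = 0.0153), so 1 array decides this call.

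The cytokinesis genes Anln and Racgap1 were lower in Met1. Anln, anillin, which organises the cleavage furrow, measured 6.54, 6.31 and 6.51 in Met1 1 to 3, against 7.64, 8.03, 7.94 and 7.89 in DB7 1 to 4. It was 2.68-fold lower (limma, adjusted p = 3.21e-05), with the Met1 values under the array median. Racgap1, the partner of Kif23 at the central spindle, measured 7.43, 7.43 and 7.42 in Met1 1 to 3, against 8.07, 8.18, 8.37 and 8.63 in DB7 1 to 4. It was 1.85-fold lower (adjusted p = 0.001), the Met1 arrays spanned 0.01 and the DB7 arrays 0.57. The other Racgap1 probe set, too dim for the filter, overlapped between the lines (-0.47, SE 0.20; adjusted p = 0.149 without the filter). Ect2, the exchange factor that activates the furrow's GTPase, was not tested with the filter, and without it was lower by 1.0 on the log2 scale (SE 0.20; adjusted p = 0.00867).

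Genes of chromosome structure, together with the Ki-67 antigen, had the largest median difference of the 9 role groups, at -1.38. Top2a, the topoisomerase that untangles chromosomes, measured 7.79, 7.88 and 7.89 in Met1 1 to 3, against 9.05, 9.55, 9.31 and 9.29 in DB7 1 to 4. It was 2.72-fold lower (limma, adjusted p = 4.67e-05). Mki67, which coats mitotic chromosomes and is widely used to count dividing cells, measured 7.95, 8.04 and 7.90 in Met1 1 to 3, against 9.0, 9.39, 9.44 and 9.43 in DB7 1 to 4. It was 2.55-fold lower (adjusted p = 8.11e-05), and DB7 1 lay below the other DB7 arrays. The condensin core subunits Smc4 and Smc2 were 3.02-fold and 1.8-fold lower, and Ncapd2, a regulatory subunit of condensin, 2.6-fold lower. The dimmer probe sets of Smc4 were lower by 0.65 and 1.04 on the log2 scale in the fit without the filter. A second Top2a probe set lay at 5.50 to 5.53 in Met1 and 5.53 to 5.61 in DB7, where it showed no difference past the threshold (-0.05, SE 0.06).

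**Figure D3:**
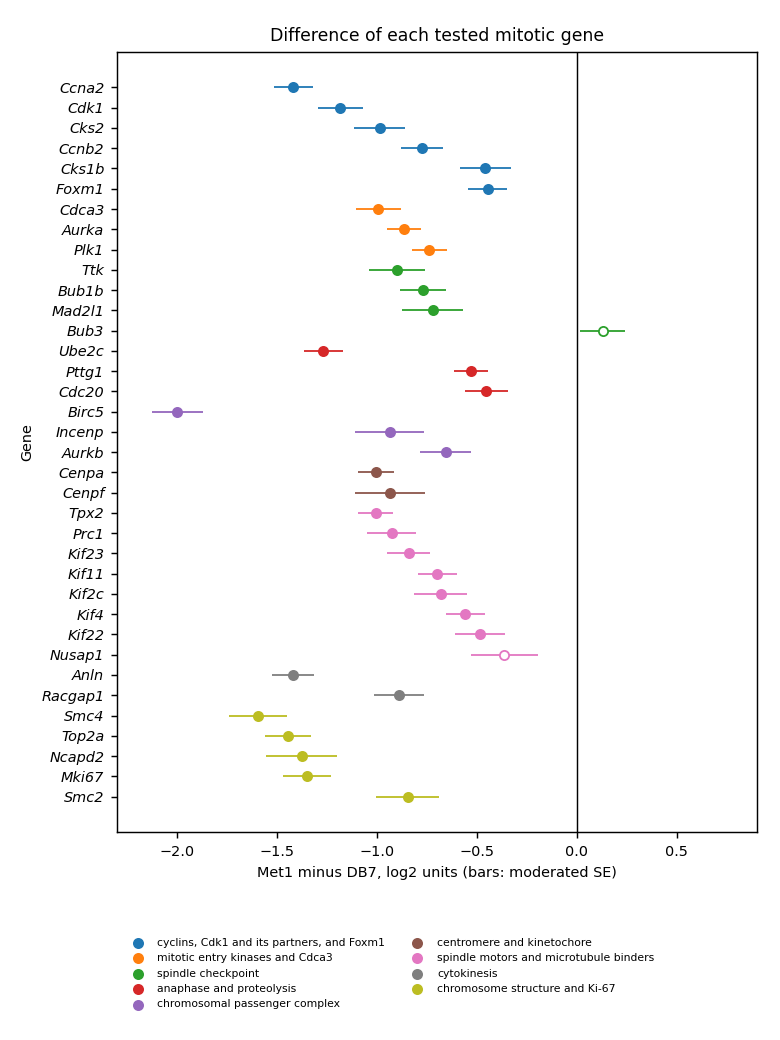
Difference of each of the 36 tested mitotic genes, Met1 minus DB7 in log2 units on the x axis, with bars for the moderated SE and colours for the role. Filled points passed the threshold, Birc5 lies farthest left at -2.0, and the open points are Bub3 and Nusap1.

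Probe sets of the same gene agreed in direction more often than in size. Of the 77 member probe sets, 51 passed the filter, 46 of them were lower and 0 higher in Met1, where 17.6% of all tested probe sets were lower and 13.4% higher. Among the 13 genes with several tested probe sets, every probe set was lower in 9, and the probe sets differed in passing in the other 4, Bub3, Cdc20, Cdca3 and Kif2c. The 9 include Kif11, Prc1 and Cenpf, of which 1 or more probe sets passed the filter through DB7 alone. The counts over filtered probe sets are therefore a description. Without the filter 61 of the 77 were lower and 0 higher, against 9.87% of all probe sets lower and 7.92% higher. The 16 that did not pass there include 11 that were too dim for the filter.

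The level of the group as a whole set each Met1 array apart from each DB7 array. Averaged over the 36 genes, relative to each gene's mean over the 7 arrays, the log2 level was -0.50, -0.49 and -0.54 in Met1 1 to 3, against 0.18, 0.49, 0.41 and 0.47 in DB7 1 to 4. DB7 1 was thus the DB7 array nearest to Met1, and it was the lowest DB7 array for 22 of the 36 genes and the highest for 0. Over all tested genes, DB7 1 was lowest for 34.3%. The spread between replicates was larger in DB7, with a median SD of 0.08 in Met1 and 0.20 in DB7 for the mitotic genes, compared with 0.09 in Met1 and 0.14 in DB7 for all tested genes.

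Markers of other cells did not move with these values in every DB7 array. Fibroblast markers (8 measured, 7 tested, 0 past the threshold in either direction) averaged 8.92 to 9.63 in Met1, against 9.71, 8.47, 8.04 and 9.09 in DB7 1 to 4. Macrophage markers (9 measured, 8 tested, 0 past the threshold) averaged 8.37 to 8.89 in Met1, against 9.02, 7.98, 8.07 and 8.65 in DB7 1 to 4. B and plasma cell markers (7 measured, 2 tested, 0 past the threshold) averaged 5.85 to 6.02 in Met1, against 7.13, 6.0, 6.20 and 7.40 in DB7 1 to 4, and Cd79a, Cd79b and Pou2af1 stayed under the array median in every array. Among the other lists, 2 of 5 tested pericyte markers were higher in Met1 (Mcam by 0.50 and Rgs5 by 0.62). Lower was 1 of 3 tested T and NK cell markers (Cd3d, -0.42), and the 1 tested skeletal muscle marker was higher (Mb, 0.52). For all tested genes the shares were 17.9% lower and 13% higher. DB7 1, the array with the lowest mitotic level in DB7, was the highest of all 7 arrays for the fibroblast and macrophage lists, and also for the endothelial (7.23), adipocyte (7.26), T and NK cell (6.49), neutrophil (6.53) and luminal (9.95) lists. Their part in its mitotic level was not tested. DB7 4 was also above DB7 2 and DB7 3 for the fibroblast, macrophage, and B and plasma cell lists. Its mitotic level was 0.47, and that of DB7 2 was 0.49. With both DB7 1 and DB7 4 left out, 34 of the 36 genes were lower and their median difference was -0.90. Of all 11704 probe sets, 2052 were lower in that fit. The part of these marker lists in the mitotic difference was not tested by it. Luminal epithelial markers differed between the lines in the same direction as the mitotic genes: of 6 tested, 5 were lower and 0 higher, and the sum of log2 levels over all 7 markers was 63.3 to 66.1 in Met1 and 68.8 to 69.6 in DB7. Krt7 was lower by 1.79, Cldn4 by 1.47 and Krt18 by 1.01, while Epcam and Krt8 were lower by 0.48 and 0.32, Krt8 not in the fit without the filter (adjusted p = 0.0698). None of these 7 markers was under the array median in all arrays. Whether these unequal marker differences reflect the luminal fraction was not tested, nor was their part in the mitotic difference.

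**Figure D4:**
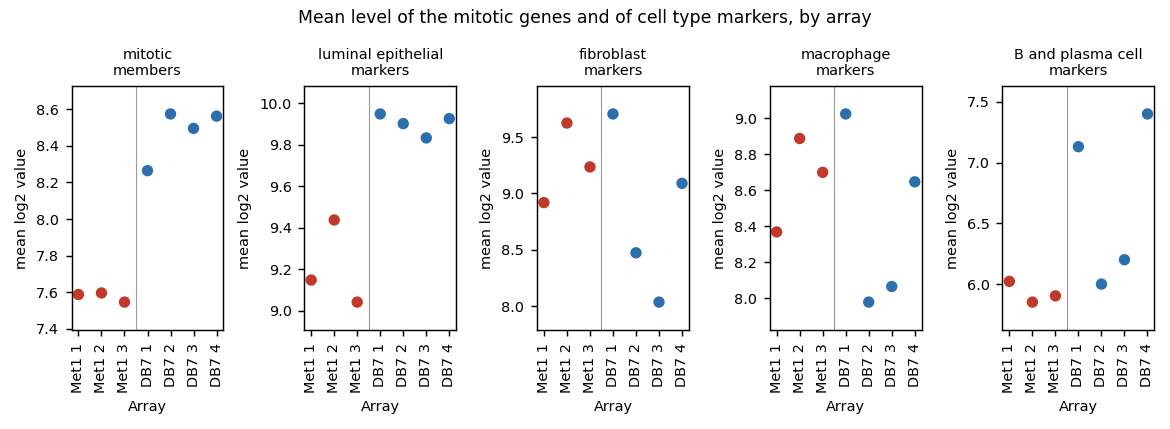
Mean log2 value per array of the 36 mitotic genes and of 4 lists of cell type markers, with Met1 arrays left of the line and DB7 arrays right. The mitotic and luminal means separate the lines, and the fibroblast, macrophage and B cell means are higher in DB7 1 and DB7 4 than in the other DB7 arrays.

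Other genes of mitosis, from a list of 118 that shares no gene with the 44, were lower in Met1 in part. Of 63 tested, 33 were lower, 2 were higher and 28 did not pass, with a median difference of -0.29. Cep55, which acts in the final cut between daughter cells, was 2.41-fold lower and Plk4, the kinase of centriole duplication, 2.57-fold lower (limma, adjusted p = 9.58e-05 and 9.87e-05). Sgo1, shugoshin, which protects centromeric cohesion, and the spindle protein gene Hmmr were 1.9-fold and 1.69-fold lower. In the other direction, Anapc11, the catalytic RING subunit of the anaphase-promoting complex, measured 9.81, 9.44 and 9.50 in Met1 1 to 3, against 8.51, 8.59, 8.32 and 8.85 in DB7 1 to 4, a difference of 1.01 (SE 0.14; adjusted p = 0.000798). Spag5, the spindle protein astrin, differed by 0.67 (SE 0.19; adjusted p = 0.0268), and its other tested probe sets by 0.91 and 0.96. The call of Spag5 was lost without Met1 1, Met1 2 or DB7 4, and without DB7 1 and DB7 4 together, with adjusted p of up to 0.108. By kind, 6 of 7 entry regulators, 10 of 15 kinetochore genes, 9 of 16 spindle genes and 6 of 10 condensin and cohesin genes were lower, against 2 of 12 subunits and partners of the anaphase-promoting complex and 0 of 3 genes listed under cytokinesis (Rhoa, Septin7 and Chmp4b), with Cep55 counted among the spindle and centrosome genes. Of all tested genes, 17.9% were lower and 13% higher. The 2 of 12 (16.7%) lies near that share, and 3 genes are too few to read. No test compared these kinds with each other.

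Of the 23 tested genes of DNA replication, the S phase counterpart, 21 were lower and 1 was higher, with a median difference of -0.82. By comparison, 17.9% of all tested genes were lower and 13% higher. Rrm1, the large subunit of ribonucleotide reductase, was 2.99-fold lower, the helicase subunits Mcm6 and Mcm5 2.64-fold and 2.35-fold, and the primase Prim1 2.29-fold lower (limma, adjusted p = 2.57e-05, 8.34e-05, 0.000266 and 0.000158). The exception that passed was Tk1, thymidine kinase, at 9.57, 9.27 and 9.27 in Met1 1 to 3, against 8.77, 8.96, 9.12 and 9.03 in DB7 1 to 4, a difference of 0.40 (SE 0.11; adjusted p = 0.0274). That call was lost without any 1 of the 3 Met1 arrays (adjusted p of up to 0.106) and without DB7 1 and DB7 4 (0.0799).

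Genes listed as regulators of mitotic transcription were lower in 7 of 15 tested cases, with 0 higher. The shares over all tested genes were 17.9% lower and 13% higher. E2f8 and E2f1, a repressor and an activator of the E2F family, were lower by 0.81 (SE 0.09) and 0.56 (SE 0.07), and the pocket protein gene Rbl1 and Myb by 0.79 (SE 0.13) and 0.90 (SE 0.15; limma, adjusted p = 0.000314, 0.000574, 0.00208 and 0.0025). E2f8 and Myb were too dim for a filter on mean signal, so their direction may be partly set by the main filter. Without a filter their adjusted p was 0.000285 and 0.00309. The genes of the CCAAT-binding factor NF-Y did not pass: Nfya differed by -0.13, Nfyb by -0.24 and Nfyc by 0.01.

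**Figure D5:**
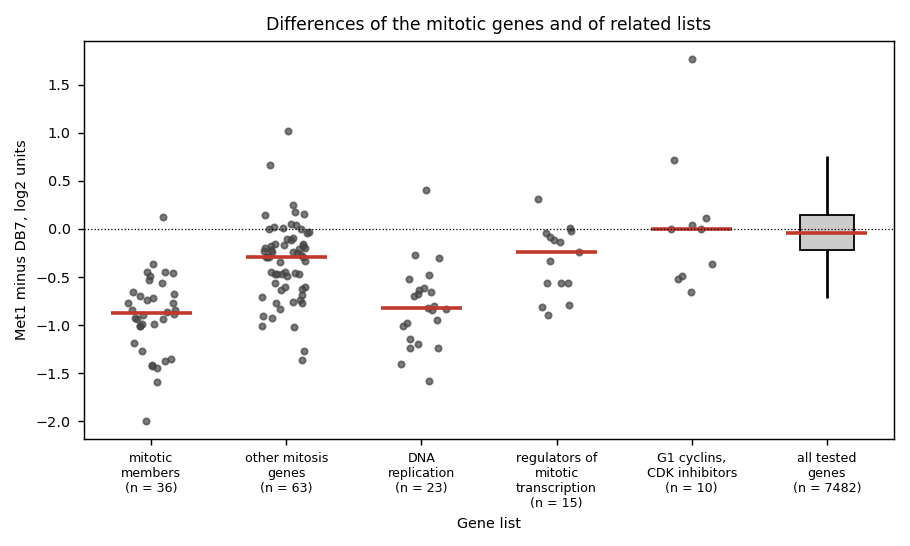
Difference between Met1 and DB7 (log2 units, y axis) of each tested gene in the mitotic group and in 4 related lists, with a red bar at the median. The box for all 7482 tested genes spans the quartiles, and its lines reach the percentiles 5 and 95. The mitotic and replication medians lie at -0.88 and -0.82, the others nearer to 0.

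The 36 tested members lie on 14 chromosomes, at most 5 of them on any 1, and their neighbours were lower about as often as other genes. For each of the 36 tested members, the 5 tested genes on either side in the order of the RefSeq annotation (GRCm38.p6) were taken. Of these 360 neighbours, 18.9% were lower in Met1, close to the 17.9% of all tested genes, and the medians of the 36 neighbourhoods ran between -0.35 and 0.33. Birc5 lies among genes that differ in both directions. Of its 10 neighbours 5 were lower and 3 higher, the adjoining Tk1 differing by 0.40 and Tha1, on its other side, by -2.04 (limma, adjusted p = 2.11e-05).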

How the data were processed

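The authors deposited 1 table of log2 probe set values for 22690 probe sets and 7 arrays. The log2 scale was judged from the values. RMA and MAS5 both appear in the submitters' processing notes, and which of them made the values is not said. Versions and settings are not given here by the labels, and summaries of this kind compress differences of dim and very bright probe sets. The values were used as deposited, and the number of arrays limits their precision. The 64 control probe sets were left out, and 20380 others had 1 gene symbol in GEO's platform annotation, 691 several and 1555 none. Probe sets above their array's median on at least 3 arrays (11704) were fitted with limma 3.58.1 in R 4.3.3 (lmFit, eBayes with a trend on intensity, the line as sole factor, two-sided). Benjamini-Hochberg adjustment ran over all 11704, with a threshold of 0.05, and every adjusted p is limma's. The probe set with the highest mean stood for its gene. Members, gene lists and alternatives, including the removal of DB7 1 and DB7 4, were chosen with earlier results of these data known. By rule, values per array are given for the 2 genes of each role with the smallest p and for tested members that did not pass. Of each related list, the 4 genes with the smallest p and up to 2 that went the other way are named. Cell type markers, Nfya, Nfyb and Nfyc were named after their values were seen. The fit was tested on simulated data.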

Additional observations from a re-analysis of the deposited data

Results flagged for a closer look

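For 5 of the 61 genes examined among the 4 DB7 arrays, DB7 1 stood apart below the others by Dixon's criterion, which chance alone meets in about 1 of 20 groups. In DB7 1 Mki67 was at 9.0, while DB7 2 to 4 ran between 9.39 and 9.44. Cdca3 was at 7.64 there against 8.01 to 8.08 in DB7 2 to 4, and Aurkb at 6.54 against 6.88 to 6.95. Nek2 was at 6.24 there against 6.33 in each of DB7 2 to 4, a gap of under 0.1 units at a signal below the array median. Rbl1, a pocket protein gene outside the mitotic group, was at 6.65 against 7.07 to 7.11. In all 5 cases the DB7 1 value was still above every Met1 value. Beside these values, DB7 1 had the highest mean of all arrays for fibroblast markers (9.71) and for macrophage markers (9.02), as well as for endothelial, adipocyte, neutrophil, T and NK cell and luminal markers, and their part was not tested.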

How the results depend on the processing

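The count of lower mitotic genes stayed between 31 and 34 of 36 in the 7 fits with 1 array removed, and the median difference between -0.94 and -0.82. Over all 11704 probe sets, lower calls in these fits ran between 1289 (without Met1 3) and 2205 (without DB7 1). Quantile normalization, median centring, both other variance models, array weights and the mean of a gene's probe sets gave 34 of 36 lower genes and 0 higher. The filter on mean signal, which left out Ttk and Aurkb, gave 32 of 34, and no filter gave 38 of 41, with 0 higher. Among these fits, those of 11704 probe sets had between 1691 (median centring) and 2544 (array weights) lower in all. There were 1944 of 11312 with the filter on mean signal, 2234 of 22626 without a filter, and 1386 of 7482 genes with the mean of probe sets. With a minimum of 1.5-fold, 11 mitotic genes, 13 mitotic probe sets and 3 other mitosis genes passed, among 466 probe sets in all, since that test asks for a larger difference. Leaving out probe sets that can match several transcripts left 27 of the 36 members to test, without Birc5, Top2a, Cenpa, Cdca3, Pttg1, Aurkb, Kif22, Prc1 and Racgap1, and with 30 mitotic probe sets among 2302 past the threshold. The difference of Bub3 changed sign to -0.64 there, to -0.26 with the mean of its probe sets and to -0.0214 without DB7 1 and DB7 4. The cause was not tested. With the replicate number as a replicate block, 2803 probe sets and 31 mitotic genes passed, and Cdc20, Cks1b and Kif22 lost their calls (adjusted p of 0.0537, 0.0538 and 0.0538), as did Spag5, Tk1 and Cdkn1a. Apart from the 1.5-fold minimum, Cks1b lost its call in 7 fits, and Cdc20 and Kif22 in 3 each, all of them with 1 array removed or with the block. Outside that minimum, no other member lost its call in a fit that tested it, and Nusap1 gained one without DB7 3 (-0.51). Same-numbered arrays of the lines did not deviate together (correlations of -0.17, -0.05 and 0.02), so the numbers were not taken as pairs. Signals below the array median, as for Nek2, Cenpe and Kif20a, carry approximate folds.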

Other observations

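Of 10 tested genes of the G1 phase, which precedes the mitotic program, 4 were lower, 2 were higher and 4 did not pass, with a median difference of 0.00. Among all tested genes 17.9% were lower and 13% higher, and the 2 of 10 higher lie near that share. Cdkn2b, an inhibitor of the G1 kinases Cdk4 and Cdk6, measured 7.86, 7.12 and 7.58 in Met1 1 to 3, against 5.96, 5.64, 5.76 and 5.66 in DB7 1 to 4 (difference 1.77, SE 0.17; limma, adjusted p = 9.98e-05). The Met1 values lay above the array median and the DB7 values below it, so Cdkn2b passed the filter through Met1 alone. In the fit without the filter its adjusted p was 0.000131. Cdk2 and Cdk4, the kinases of the G1 to S transition, were lower by 0.66 (SE 0.09) and 0.52 (SE 0.11), and the inhibitor gene Cdkn2d by 0.49 (SE 0.11). Cdkn1a, the p53-induced inhibitor, differed by 0.72 (SE 0.24; adjusted p = 0.0477), with Met1 1 at 10.11 above Met1 2 at 8.99 and Met1 3 at 9.29. That call was lost under the 1.5-fold minimum and in 11 other alternatives, in which the adjusted p reached 0.148.

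Tested genes that are no members but have both TTTGAA and CCAAT in a promoter window numbered 312. Of these 22.8% were lower in Met1, with a median difference of -0.08, against 17.5% and -0.04 for all 6031 tested genes outside the mitotic group that have a window. The difference between these shares was not tested.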
